A study of Mus musculus with 18 samples.

Results

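The genes described here are 5 cadherins, *Cdh16*, *Cdh1*, *Cdh2*, *Cdh3* and *Cdh6*, and 4 catenins that bind cadherins inside the cell, *Ctnnb1*, *Ctnna1*, *Ctnnd1* and *Jup*. They are 9 of the 55401 genes in the tables and were chosen by name. RNA was sequenced from 18 pools of the thick ascending limb of Henle's loop (TAL): 5 pools of WT cortical TAL (CTAL), 5 of cKO CTAL, 5 of WT medullary TAL (MTAL) and 3 of cKO MTAL. All mice were adult males of a mainly C57BL/6 background and carried *Cldn10* fl/fl, in which the gene of the tight junction protein claudin-10 can be removed by Cre recombinase. The cKO mice also carried Ksp-Cre, and the WT mice were littermates without Cre. Ksp-Cre takes its regulatory sequence from *Cdh16*, so that Cre acts wherever this sequence is used along the distal nephron and not in the TAL alone. Each pool held 150 to 200 tubules dissected from 1 mouse, and no mouse gave more than 1 pool.

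Cadherins join neighbouring epithelial cells in adherens junctions. Outside the cell they bind cadherins of the next cell in a calcium-dependent way, and inside the cell most of them bind β-catenin or plakoglobin, which are tied to actin through α-catenin, while p120-catenin keeps the cadherin at the membrane. E-cadherin is the usual cadherin of distal tubule epithelium, and N-cadherin that of the proximal tubule. Ksp-cadherin is made mostly in the kidney and has a short tail without the catenin-binding part.

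RefSeq sequences before transcript starts (mouse assembly GRCm38.p6) were found for 4 of the 9 genes. That of *Cdh6* is shown because *Cdh6* differed most between the segments. It covers the 250 bases at chr15:13173676-13173925 and is written 5′ to 3′ on the minus strand, with the letters GGGCGG, the core of a GC box, in capitals. The capitals hold 2 copies that overlap.
Cdh6: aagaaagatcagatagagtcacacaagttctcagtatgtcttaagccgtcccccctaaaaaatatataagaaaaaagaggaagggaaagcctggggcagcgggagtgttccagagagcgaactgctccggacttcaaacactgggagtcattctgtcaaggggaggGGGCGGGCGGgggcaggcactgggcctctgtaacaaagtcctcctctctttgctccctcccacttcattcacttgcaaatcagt
Searched on both strands, GGGCGG was present in 32.7% of 32851 such windows, so that its presence is common. In the windows of *Ctnnb1*, which lie before RefSeq starts inside the longer annotated gene, it occurred 3 and 2 times, and in that of *Jup* 2 times, and those of *Ctnnd1*, of which 1 runs into the annotated gene, held no copy. The letters GTTAAT, part of the site of the kidney transcription factor HNF1, were in none of these windows and in 6.43% of all windows.

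*Cldn10* was measured at 499 ± 82.1 CPM (mean ± SD, n = 5) in WT CTAL, 172 ± 10.5 (n = 5) in cKO CTAL, 750 ± 60.5 (n = 5) in WT MTAL and 221 ± 72.2 (n = 3) in cKO MTAL. The genotypes did not overlap within a segment. However, the study had left out 1 cKO CTAL pool because its *Cldn10* level was like that of WT CTAL. It states that cKO pools of the TAL were kept only if *Cldn10* was significantly lower than in WT. The separation is therefore no independent check in either segment. CPM are counts scaled to a common library size, here after adjustment of the library sizes by the trimmed mean of M-values (TMM). *Slc12a1*, which encodes the TAL salt transporter NKCC2, lay between 11424 and 16145 CPM. The title and genotype field of WT CTAL replicate 1 name the knock-out while its pool name says WT. It was used as WT. Its group's *Cldn10* values of 384 to 579 CPM all lay above the cKO CTAL values of 156 to 185. Since cKO pools were kept by their *Cldn10* level, these values cannot settle the label. Total counts ranged from 10824299 to 62339939 per pool. *Xist*, which is normally silent in males, was at 6.5 to 8.77 CPM in 7 pools (2 WT CTAL, 1 cKO CTAL and 4 WT MTAL) and at 0.233 to 0.738 in the others, while 4 Y-linked genes summed to 87.8 to 127 CPM in every pool. The summed level of 12 tubular injury markers was highest in cKO MTAL replicate 18, at 9474 CPM, and in cKO CTAL replicate 2, at 5164. The sum of 8 principal cell markers was highest in cKO MTAL replicate 20, at 1054 CPM.

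Of the 9 genes, 3 lie on chromosome 8 of the mouse build GRCm38, also called mm10. *Cdh16* (ENSMUSG00000031881) lies on the minus strand at chr8:104601911-104624396. *Cdh3* (ENSMUSG00000061048) lies on the plus strand at chr8:106510891-106557297 and is followed after 46053 bases by *Cdh1* (ENSMUSG00000000303) on the same strand, at chr8:106603351-106670246. *Cdh6* (ENSMUSG00000039385) lies at chr15:13028701-13173675 on the minus strand, *Cdh2* (ENSMUSG00000024304) at chr18:16588877-16809246 on the minus strand, *Ctnnb1* (ENSMUSG00000006932) at chr9:120929216-120960507 on the plus strand, *Ctnna1* (ENSMUSG00000037815) at chr18:35118859-35254779 on the plus strand, *Ctnnd1* (ENSMUSG00000034101) at chr2:84600071-84650765 on the minus strand and *Jup* (ENSMUSG00000001552) at chr11:100368958-100397763 on the minus strand. *Cdh16*, *Cdh1*, *Cdh3*, *Cdh6* and *Jup* overlap no other annotated gene. *Ctnnd1* overlaps the protein-coding model *Gm28635* on its own strand, so that its counts are less certain. *Ctnnb1* overlaps the microRNA gene *Mir7090* on its strand and *Ulk4* and *4930593C16Rik* on the other, *Ctnna1* overlaps *Lrrtm2* and *Cdh2* overlaps *Gm15485*, both on the other strand. The libraries were strand specific, but whether the counting used the strand is not given in the sources used here.

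Levels of different genes can be set side by side only per transcript length, and for this the deposited TPM values (transcripts of each gene scaled to a fixed total per pool) were used. *Cdh16* was the most abundant of the 9 genes, with a mean of 884 TPM over the 18 pools (665 to 1236) and rank 71 of all genes. It was followed by *Ctnnb1* (β-catenin) with 329 TPM, *Ctnna1* (α-catenin) with 218, *Cdh1* (E-cadherin) with 193, *Jup* (plakoglobin, which also serves desmosomes) with 103 and *Ctnnd1* (p120-catenin) with 54.4. *Cdh3* (P-cadherin) had a mean of 10.9 TPM (4.62 to 19.2), *Cdh6* (K-cadherin, known from the developing kidney) 7.4 (1.53 to 13.3) and *Cdh2* (N-cadherin) 0.397 (0.103 to 0.944). This order was the same in all 18 pools but for 2 neighbouring pairs, whose order was mixed in the CTAL and not in the MTAL. *Ctnna1* exceeded *Cdh1* in 7 of 10 CTAL pools and in all 8 MTAL pools, there by 1.1 to 1.65 times. *Cdh3* exceeded *Cdh6* in 6 of 10 CTAL pools and in all 8 MTAL pools, there by 2.2 to 4.97 times. The lowest and the highest pool were further apart, as a ratio, for *Cdh3*, *Cdh6* and *Cdh2* than for the 6 more abundant genes.

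**Figure D1:**
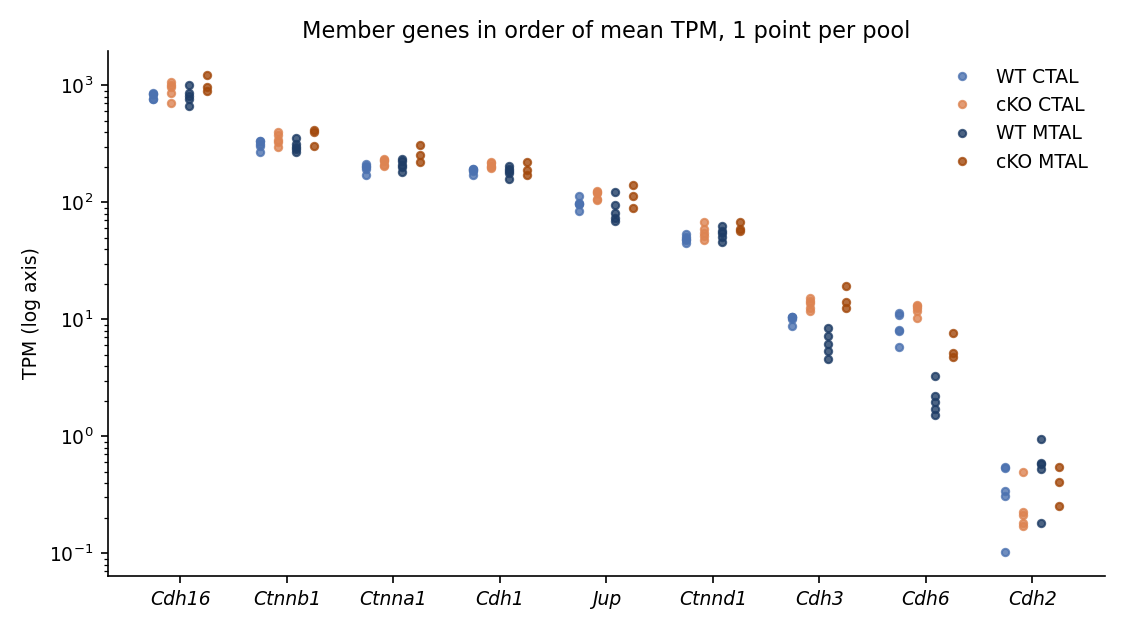
Level of the 9 genes in TPM on a log axis, with 1 point per pool and colours for the 4 groups, in order of the mean over 18 pools. *Cdh16* lies highest at 665 to 1236 TPM, and the WT MTAL points of *Cdh3* and *Cdh6* lie below those of the other groups.

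In the summed TPM of the 5 cadherins, *Cdh16* took 79.9% ± 0.7 (SD, n = 5) in WT CTAL, 79.5% ± 2.6 (n = 5) in cKO CTAL, 80.9% ± 1.5 (n = 5) in WT MTAL and 82.5% ± 3.8 (n = 3) in cKO MTAL. *Cdh1* took 18.2% on average in each of the first 3 groups and 15.7% ± 3.2 in cKO MTAL. Exact two-sided Mann-Whitney tests of these shares gave p between 0.222 and 1.0 for *Cdh16* and between 0.393 and 1.0 for *Cdh1* over 4 comparisons. The share of *Cdh3* was 0.986% in WT CTAL, 1.19% in cKO CTAL, 0.623% in WT MTAL and 1.24% in cKO MTAL. The share of *Cdh6* was 0.858%, 1.07%, 0.213% and 0.479% in the same order. For both genes WT MTAL differed from WT CTAL (exact p = 0.00794, the smallest that 5 against 5 pools allow) and from cKO MTAL (exact p = 0.0357, the smallest that 3 against 5 allow). *Cdh16* and *Cdh1* together therefore made up nearly all cadherin transcript in each group, and the shares that differed between groups were small ones.

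The first question was how the cadherin genes differed between the genotypes in the MTAL, the segment with more *Cldn10*. *Cdh3* and *Cdh6* were higher in cKO MTAL than in WT MTAL, by 2.15- and 2.31-fold, while *Cdh16*, *Cdh1* and the 4 catenins did not pass the test. Of the 9 genes, 8 passed the filter on low counts (3 CPM in at least 3 pools where cKO MTAL enters, otherwise in at least 5), and *Cdh2* did not in any comparison. In the quasi-likelihood test of edgeR with Benjamini-Hochberg adjustment, 2 of the 8 were called higher at an adjusted p under 0.05, against 4.44% of the 12060 genes tested, and 0 were called lower, against 2.57%. Both also had a log2 fold change of at least 1, against 3.74% of all genes in either direction. Of the 8 genes, 2 had an unadjusted p under 0.05, the same 2. The median log2 fold change was 0.16 over the 8 genes and 0.0 over all genes tested.

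*Cdh3* was at 26.7, 28.2, 22.1, 21.3 and 17.6 CPM in the WT MTAL pools and at 42.7, 60.8 and 45.3 in the cKO MTAL pools. All 3 cKO MTAL pools lay above all WT MTAL pools, and replicate 18 stood highest. The log2 fold change was 1.10 (SE 0.19, 95% interval 0.71 to 1.5; edgeR adjusted p = 0.00227), and the exact two-sided Mann-Whitney p was 0.0357. It stayed called when any single pool was left out, and was 0.93 (edgeR adjusted p = 0.0141) without cKO MTAL replicate 18 and 1.17 (edgeR adjusted p = 0.00552) without replicate 20. *Cdh3* lost the call with limma on log2(TPM + 1) (1.15, limma adjusted p = 0.0543) and on log2(TPM + 0.1) (1.26, limma adjusted p = 0.067). P-cadherin, its product, is a classical cadherin of basal epithelial layers.

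*Cdh6* was at 20.3, 8.76, 11.9, 15.1 and 9.87 CPM in the WT MTAL pools and at 28.5, 40.3 and 22.1 in the cKO MTAL pools. The groups did not overlap, although the lowest cKO MTAL pool (22.1) was close to the highest WT MTAL pool (20.3). The log2 fold change was 1.21 (SE 0.28, 95% interval 0.62 to 1.80; edgeR adjusted p = 0.0156), and the exact Mann-Whitney p was 0.0357. Without cKO MTAL replicate 18 it was 0.95 and lost the call (edgeR adjusted p = 0.0737), and without replicate 20 it was 1.40 (edgeR adjusted p = 0.0142). The call was also lost with limma on log2(TPM + 1) (1.13, limma adjusted p = 0.0575) and on log2(TPM + 0.1) (1.43, limma adjusted p = 0.065).

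Several marker sums moved with these genes. The tubular injury sum (12 genes, led by *Spp1*, which encodes osteopontin) was 1374 to 1713 CPM in WT MTAL and 2552 to 9474 in cKO MTAL. The urothelium sum (7 genes) was 5.66 to 9.48 and 20.5 to 40.1, with 5 of the 7 under 1 CPM in all WT MTAL pools. The sum of 7 distal convoluted tubule markers was 384 to 543 in WT MTAL and 936 to 1288 in cKO MTAL, with *Pvalb* at 0 in cKO MTAL, and that of 8 endothelium markers 292 to 451 and 172 to 285. Thin limb markers (8 genes) summed to 946 to 1218 and 865 to 897, and TAL markers (12 genes) to 53389 to 65076 and 70391 to 82922. Proximal tubule markers (12 genes) summed to 194 to 296 and 211 to 571, which overlap. The paper also reports nephrocalcinosis in the outer medulla of cKO kidneys, which made cKO MTAL hard to dissect. The part of this and of these sums in the *Cdh3* and *Cdh6* values was not tested. In pools of tubules, fewer cells of a type and less RNA per cell cannot be told apart. *Xist* was above 1 CPM in 4 of 5 WT MTAL pools and in no cKO MTAL pool. In one fit without such pools, which leaves WT MTAL replicate 13 alone and assumes that it varies like the other groups, the change of *Cdh3* was 0.82 (adjusted p = 0.0876) and that of *Cdh6* 1.80 (adjusted p = 0.025).

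*Cdh16*, the gene whose regulatory sequence drives the Cre, was at 1648, 1802, 1587, 1285 and 1630 CPM in WT MTAL and at 1894, 1551 and 2182 in cKO MTAL. Of the 3 cKO MTAL pools 2 lay above the WT MTAL range and 1 within it. The log2 fold change was 0.25 (95% interval -0.03 to 0.52; adjusted p = 0.278), so that changes up to that upper bound could not be told from 0. It was 0.13 (adjusted p = 0.706) without cKO MTAL replicate 20, 0.37 (adjusted p = 0.0994) without replicate 18 and 0.07 (adjusted p = 0.881) without the pools above 1 CPM of *Xist*. *Cdh1* had a log2 fold change of -0.08 (95% interval -0.31 to 0.15; adjusted p = 0.699). Among the catenins, those of *Ctnnb1*, *Ctnna1*, *Ctnnd1* and *Jup* were 0.05, 0.11, 0.04 and 0.20, with upper bounds of 0.28, 0.33, 0.26 and 0.47. *Cdh2* was at 0.463 to 3.1 CPM in WT MTAL and 0.662 to 1.36 in cKO MTAL, with overlapping groups (exact Mann-Whitney p = 0.25). Over all groups its level was 1.54 to 3.1 CPM in the 7 pools above 1 CPM of *Xist* and 0.345 to 1.36 in the other 11, with no overlap, and the part of this was not tested.

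**Figure D2:**
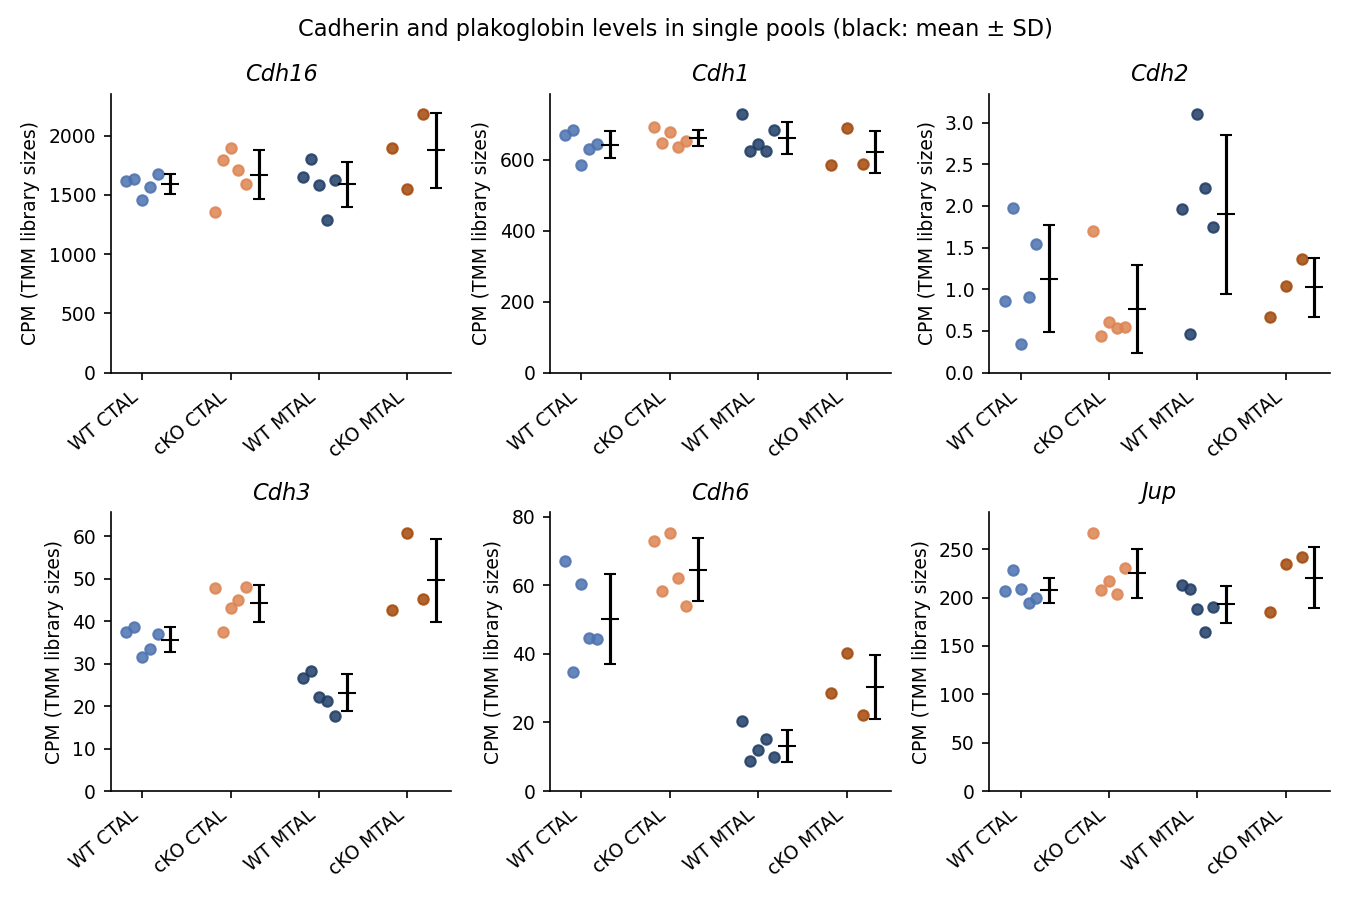
Levels of the 5 cadherins and of *Jup* in CPM on TMM library sizes, 1 point per pool in the 4 groups, with the mean ± SD in black beside the points (n = 5, 5, 5 and 3). *Cdh3* and *Cdh6* are lowest in WT MTAL, at 17.6 to 28.2 and 8.76 to 20.3 CPM, while *Cdh16* and *Cdh1* overlap between all groups.

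In the CTAL, the same question gave no call. Of the 8 genes tested, 0 were called higher and 0 lower in cKO CTAL than in WT CTAL by edgeR, against 0.658% and 0.564% of the 11702 genes, and 0 with a log2 fold change of at least 1, against 0.47%. At an unadjusted p under 0.05 there were 2, *Cdh3* and *Cdh6*, and DESeq2 called 0. The median log2 fold change was 0.08 over the 8 genes and 0.0 over all genes tested. *Cdh3* was at 37.4, 38.7, 31.6, 33.4 and 37 CPM in WT CTAL and at 47.7, 37.4, 43, 45 and 48 in cKO CTAL, so that 4 of 5 cKO pools lay above all WT pools. Its log2 fold change was 0.30 (SE 0.09, 95% interval 0.11 to 0.50), with an edgeR adjusted p of 0.158 and an exact Mann-Whitney p of 0.0159.

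*Cdh6* was at 66.9, 34.7, 60.3, 44.7 and 44.2 CPM in WT CTAL and at 73, 58.3, 75.3, 62.2 and 54 in cKO CTAL. The groups overlapped, and the change was 0.35 (SE 0.15, 95% interval 0.02 to 0.67; adjusted p = 0.377). *Cdh16* was at 1621, 1632, 1455, 1568 and 1680 CPM in WT CTAL and at 1356, 1796, 1893, 1710 and 1595 in cKO CTAL. The WT values lay inside the range of the cKO values, and the change was 0.06 (95% interval -0.14 to 0.26; adjusted p = 0.863). *Cdh1* changed by 0.03 and the catenins by 0.01 to 0.12, with adjusted p between 0.588 and 0.991. The tubular injury sum was 1692 to 1935 CPM in WT CTAL and 2057 to 5164 in cKO CTAL, and the part of this in the values of *Cdh3* was not tested.

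Whether the genotype effect differed between the segments was tested as an interaction in one fit of all 18 pools. edgeR called 0 of the 8 genes, against 0.262% higher and 0.0238% lower of the 12586 genes, with 2 at an unadjusted p under 0.05. DESeq2 called 1 of the 8, against 353 of the 12586 genes. The effect on *Cdh3* was larger in MTAL than in CTAL by 0.78 on the log2 scale (SE 0.20, 95% interval 0.38 to 1.19; adjusted p = 0.0741), and that on *Cdh6* by 0.85 (SE 0.32, 95% interval 0.19 to 1.51; adjusted p = 0.199). The DESeq2 likelihood ratio test called *Cdh3* (adjusted p = 0.0173), as did edgeR without WT MTAL replicate 13 (0.87, adjusted p = 0.0387). For the other 6 genes the difference lay between -0.13 and 0.17. The median was 0.06 over the 8 genes and -0.01 over all genes.

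**Figure D3:**
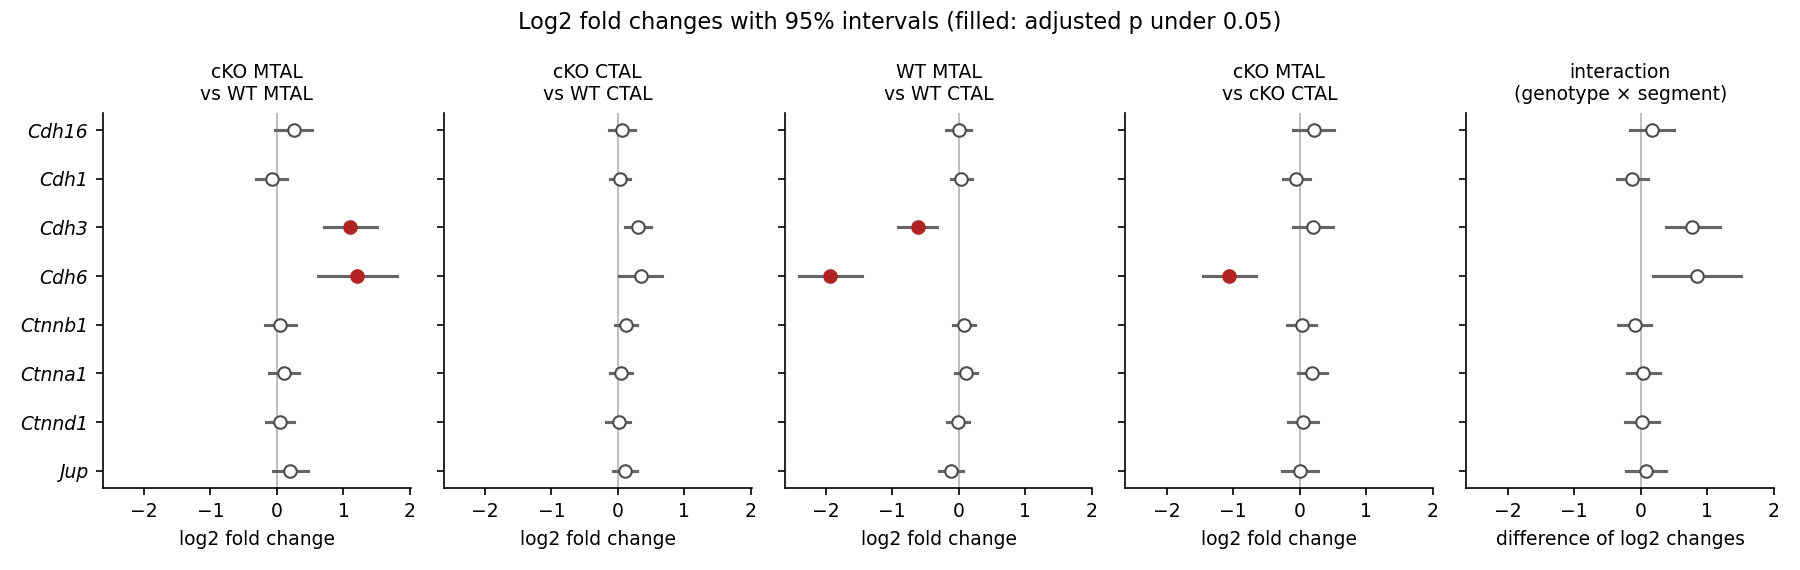
Log2 fold changes of the 8 tested genes with 95% intervals in the 4 comparisons and, in the last panel, the interaction of genotype and segment. Filled points have an adjusted p under 0.05: *Cdh3* and *Cdh6* in cKO MTAL against WT MTAL and in WT MTAL against WT CTAL, and *Cdh6* in cKO MTAL against cKO CTAL.

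Between the segments of WT mice, *Cdh6* and *Cdh3* were lower in MTAL than in CTAL, and the other genes did not pass the test. Of the 8 genes, edgeR called 2 lower, against 4.1% of 11650 genes, and 0 higher, against 2.76%. With a log2 fold change of at least 1 it called 1, against 2.32%. The 8 genes had a median of about 0 (-0.0), and all genes tested one of 0.02. *Cdh6* fell from 50.2 ± 13.1 CPM (SD, n = 5) in WT CTAL to 13.2 ± 4.67 (n = 5) in WT MTAL, with no overlap, a log2 fold change of -1.94 (SE 0.22; edgeR adjusted p = 3.36e-05) and an exact Mann-Whitney p of 0.00794. This was the largest difference among the 8 genes and was 3.83-fold. *Cdh3* fell from 35.6 ± 2.96 CPM to 23.2 ± 4.29, with no overlap, a log2 fold change of -0.62 (SE 0.14; edgeR adjusted p = 0.00902) and an exact Mann-Whitney p of 0.00794.

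Without the pools above 1 CPM of *Xist*, *Cdh3* differed between the WT segments by -0.27 (adjusted p = 0.688) and *Cdh6* by -2.70 (adjusted p = 0.00178), again with WT MTAL replicate 13 as the lone pool of its group. *Cdh3* was at 28.2 CPM in that pool, the highest of WT MTAL, and *Cdh6* at 8.76, the lowest. No difference between WT segments was detectable for *Cdh16* (95% interval -0.19 to 0.19) or *Cdh1* (0.04, 95% interval -0.12 to 0.20). The changes of the catenins lay between -0.11 for *Jup* and 0.11 for *Ctnna1*. The distal convoluted tubule sum was 1721 to 2382 CPM in WT CTAL against 384 to 543 in WT MTAL. The TAL sum was 87276 to 98904 against 53389 to 65076, and the thin limb sum 555 to 864 against 946 to 1218. The part of these sums in the *Cdh3* and *Cdh6* differences was not tested.

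Between the segments of cKO mice, *Cdh6* was lower in MTAL while *Cdh3* was not called. edgeR called 1 of the 8 genes lower, against 0.631% of 12044 genes, and 0 higher, against 1.12%. With a log2 fold change of at least 1 it called the same gene, against 0.938%. The median was 0.04 over the 8 genes and 0.03 over all. *Cdh6* was at 64.6 ± 9.26 CPM (SD, n = 5) in cKO CTAL and 30.3 ± 9.26 (n = 3) in cKO MTAL, with no overlap, a log2 fold change of -1.06 (SE 0.18; edgeR adjusted p = 0.0127) and an exact Mann-Whitney p of 0.0357. The call was lost without cKO MTAL replicate 16 (-1.03, adjusted p = 0.0641). The distal convoluted tubule sum was 2092 to 3559 CPM in cKO CTAL and 936 to 1288 in cKO MTAL. In the same order the TAL sum was 85404 to 101645 and 70391 to 82922, and the thin limb sum 527 to 608 and 865 to 897. The urothelium sum was 6.14 to 11 and 20.5 to 40.1. The part of these sums here was not tested either. *Cdh3* was at 44.2 ± 4.32 and 49.6 ± 9.77 CPM, with a log2 fold change of 0.20 (95% interval -0.10 to 0.50, edgeR adjusted p = 0.48). Those of *Cdh16* and *Cdh1* were 0.21 (95% interval -0.10 to 0.51) and -0.05 (95% interval -0.25 to 0.15). The changes of the catenins lay between 0.01 for *Jup* and 0.19 for *Ctnna1*.

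Set beside the CTAL of WT mice, the cKO MTAL pools took different places for the 2 genes. For *Cdh3*, all 3 cKO MTAL pools lay above the WT CTAL range of 31.6 to 38.7 CPM. For *Cdh6*, 1 lay within the WT CTAL range of 34.7 to 66.9 CPM and 2 below it, and all 3 lay below the cKO CTAL range of 54 to 75.3. The comparisons share groups, and these positions are a description.

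**Figure D4:**
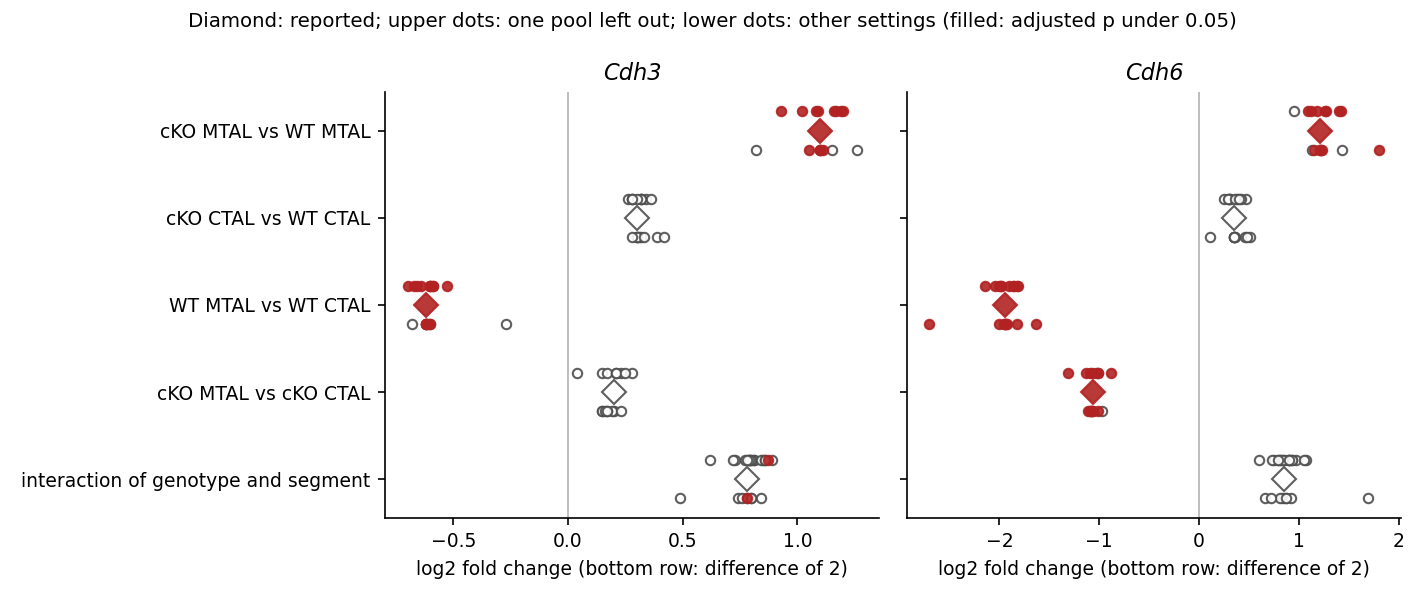
Log2 fold changes of *Cdh3* (left) and *Cdh6* (right) in each comparison (in the bottom row, the difference of 2 of them). Diamonds are the reported values, the dots above them leave out 1 pool each, the dots below them are other tools, scalings and pool choices, and filled symbols have an adjusted p under 0.05. The direction of *Cdh3* in the MTAL (0.82 to 1.26) and of *Cdh6* between WT segments (-2.70 to -1.63) was the same under all settings. The call was not always kept for *Cdh3*, nor for *Cdh6* in cKO MTAL against WT MTAL and between cKO segments.

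The genes whose levels followed those of *Cdh3*, *Cdh6* and *Cdh16* most closely over the 18 pools were found by Spearman's correlation among 12579 genes. These correlations are descriptions, since the pools share 4 groups. For *Cdh3* they were *Spp1* (rho 0.95), *Arg2* (0.94), which encodes an arginase, and *Rab31* (0.94), which encodes a small GTPase of vesicle traffic. *Spp1* was at 1015 to 1241 CPM in WT MTAL, 1355 to 1614 in WT CTAL, 1671 to 4347 in cKO CTAL and 1959 to 7835 in cKO MTAL, and it belongs to the tubular injury list. For *Cdh6* they included *Casr* (0.97), which encodes the calcium-sensing receptor, and *Gm44120* (0.95).

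*Casr* was at 419 to 529 CPM in WT MTAL, 696 to 802 in cKO MTAL, 807 to 1077 in WT CTAL and 1042 to 1158 in cKO CTAL, the same order of groups as for *Cdh6*. For *Cdh16* the closest were *Sdc4* (0.87), which encodes a syndecan, *Ndufs8* (0.80) and *Tubb4b* (0.80), over a narrow range of levels. Among the 9 genes, *Cdh3* correlated with *Cdh6* at 0.57 and with *Jup* at 0.68, and *Cdh16* correlated with the 7 others that passed the filter at -0.23 to 0.17 (*Cdh2* did not pass).

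Partners of the junction were counted from lists. The shares of all genes set beside these counts are of edgeR calls. DESeq2 called 1366 of 12060 genes in cKO MTAL against WT MTAL and 360 of 11702 in cKO CTAL against WT CTAL. It called 1068 of 11650 between WT segments, 825 of 12044 between cKO segments and 353 of 12586 in the interaction. The share of all genes at an unadjusted p under 0.05 was not computed, so those counts have none beside them. Of 26 tested adherens junction partners, 4 were higher and 0 lower in cKO MTAL than in WT MTAL, against 4.44% and 2.57% of all genes tested, with a median log2 fold change of -0.02 (0.0 over all genes). At an unadjusted p under 0.05 there were 10, and DESeq2 called 6. The 4 act on actin. *Zyx* (zyxin) rose by 0.93 (edgeR adjusted p = 0.00476), from 22.7 ± 2.67 to 43.2 ± 8.9 CPM, and *Actn1* and *Actn4* (α-actinins) by 0.79 and 0.52, and *Vasp* by 0.58. *Zyx* was also higher in cKO MTAL than in cKO CTAL (0.83, edgeR adjusted p = 0.0105), 1 of 27 tested against 1.12% of all genes. It was the 1 gene of the list called in the interaction (1.05, edgeR adjusted p = 0.00717), again 1 of 27, against 0.262% of all genes. In cKO CTAL against WT CTAL edgeR called 0 of 26, against 0.658% of all genes higher and 0.564% lower. At an unadjusted p under 0.05 there were 6, and DESeq2 called 1. *Lmo7*, which encodes an afadin-binding protein, was higher in WT MTAL than in WT CTAL by 0.28 (edgeR adjusted p = 0.0439). This was 1 of 26 tested, against 2.76% of all genes, so that it does not set the list apart.

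Of 41 other cadherin and protocadherin genes, 11 were tested. In cKO MTAL against WT MTAL 3 were higher and 3 lower, against 4.44% and 2.57% of all genes, with a median of -0.08, 7 at an unadjusted p under 0.05 and 7 called by DESeq2. *Pcdh1* rose by 1.5 (edgeR adjusted p = 0.000254), and *Pcdh19*, *Pcdh17* and *Cdh5* fell, with log2 fold changes of -1.89, -1.65 and -1.34. *Cdh5* encodes VE-cadherin of endothelium and is itself in the endothelium list, whose sum was 292 to 451 CPM in WT MTAL and 172 to 285 in cKO MTAL. In the CTAL, *Pcdh1* (0.70, adjusted p = 0.0151) and *Fat1* (0.40, adjusted p = 0.0334) were higher in cKO pools, 2 of 11 against 0.658% of all genes, and 0 were lower. The median there was -0.15, with 9 at an unadjusted p under 0.05 and 5 called by DESeq2. Between WT segments, *Pcdh19* was higher in MTAL (0.99) and *Celsr1* lower (-0.62), 1 of 11 each against 2.76% and 4.1% of all genes.

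Of 7 tested desmosome genes, 1 was higher in cKO MTAL than in WT MTAL, against 4.44% of all genes, with a median of 0.39, 3 at an unadjusted p under 0.05 and 1 called by DESeq2. It was *Evpl*, which encodes the plakin envoplakin (1.05, edgeR adjusted p = 0.0139), and *Dsp* (desmoplakin) was higher in WT MTAL than in WT CTAL (0.52, adjusted p = 0.00217; 1 of 7, against 2.76% of all genes). Genes of cadherin turnover (19 tested) and of the β-catenin destruction complex (8 tested) had 0 calls by edgeR in all 4 comparisons and in the interaction, where 0.0238% to 4.44% of all genes were called in 1 direction, so that 0 calls in lists of this size do not set them apart. At an unadjusted p under 0.05 there were 1 to 4 of the turnover genes and 0 to 2 of the complex genes in each, and DESeq2 called at most 2 and 1.

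Of 6 tested β-catenin target genes, 2 were lower in cKO CTAL than in WT CTAL, *Myc* by -1.17 (edgeR adjusted p = 0.0152) and *Ccnd1* (cyclin D) by -0.66 (adjusted p = 0.0397), against 0.564% of all genes, with a list median of -0.33, 3 at an unadjusted p under 0.05 and 2 called by DESeq2. In cKO MTAL against WT MTAL edgeR called 0 of 6, against 4.44% of all genes higher and 2.57% lower, so that 0 calls do not set this list apart. At an unadjusted p under 0.05 there was 1, and DESeq2 called 1. *Myc* and *Tcf7l1* were higher in MTAL than in CTAL in WT mice (1.0 and 0.96), 2 of 6 against 2.76% of all genes. In cKO mice they were also higher in MTAL (1.25 and 1.14), 2 of 6 against 1.12% of all genes. *Znrf3* was lower in WT MTAL than in WT CTAL (-0.35), 1 of 6 against 4.1% of all genes. Of the transcription factors and related genes that act on cadherin genes, *Tcf4* was lower in cKO MTAL than in WT MTAL (-0.46, adjusted p = 0.0487; 1 of 14 tested, against 2.57% of all genes) and *Elf3* was higher in cKO MTAL than in cKO CTAL (0.95, adjusted p = 0.00669; 1 of 14, against 1.12%).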

How the data were processed

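RNA-seq data of 18 pools were used. Reads had been trimmed (fastp), aligned to mm10 and quantified on Illumina's DRAGEN platform with gencode gene models. The deposited gene table holds estimated counts, which the authors left unscaled. The other deposited table holds TPM, in which the authors divided by transcript length and set an equal total for each pool. Pools that the paper excluded (2 of cKO MTAL after quality control, 1 of cKO CTAL for its *Cldn10* level) were not analysed here.

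Estimated counts were rounded to whole numbers. Depth was 10824299 to 62339939 counts, with 20364 to 25265 genes detected per pool, and 55141 of 55401 identifiers (99.5%) were in the GRCm38 annotation. Genes that passed the filter were tested with edgeR 4.0.16 in R 4.3.3 (TMM factors, quasi-likelihood F test, Benjamini-Hochberg adjustment over all tested genes), on the pools of each comparison. The procedure was also run on simulated counts, and the outcome is not given here. Levels of single genes were compared by exact Mann-Whitney tests, two-sided and unadjusted (36 tests of CPM). Alternatives were DESeq2 1.42.0, other size factors, no filter, limma 3.58.1 on log2(TPM + 1) and log2(TPM + 0.1), one fit of all pools, pools left out, and the label of WT CTAL replicate 1.

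The 9 genes were examined in every comparison, but not every value is printed. From each list the called genes that changed at least 2-fold were named, or up to 4 with the largest change. For *Cdh16*, *Cdh3* and *Cdh6* the 3 genes of highest correlation were named, except 1 that is not reported here. The genes and lists were chosen with earlier results of these data known, and the GC box after the reference was seen.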

Additional observations from a re-analysis of the deposited data

Results flagged for a closer look

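*Cdh2* in cKO CTAL replicate 2 stood apart from its group, at 1.7 CPM against 0.434 to 0.609 in the other 4 pools. The gap took 0.862 of the group's range. Chance flags about 1 in 20 groups, and 27 groups of the 9 genes were tested, of which 1 was flagged. This pool was also the 1 cKO CTAL pool above 1 CPM of *Xist*. Over all groups *Cdh2* was at 1.54 to 3.1 CPM in the 7 pools above 1 CPM of *Xist* and at 0.345 to 1.36 in the other 11. The part of this in the value was not tested.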

How the results depend on the processing

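The 5 called changes of *Cdh3* and *Cdh6* were recomputed under 86 alternatives in all. The direction was the same in all 86 and the call was kept in 74 and lost in 12. For *Cdh3* in cKO MTAL against WT MTAL the adjusted p ranged from 3.83e-06 to 0.0876, for *Cdh6* from 0.000832 to 0.0737. Between WT segments it ranged from 0.000623 to 0.688 for *Cdh3* and from 2.48e-16 to 0.00178 for *Cdh6*, and between cKO segments from 1.09e-05 to 0.105 for *Cdh6*. With limma on log2(TPM + 1) and on log2(TPM + 0.1), 0 and 0 of the genes were called in cKO MTAL against WT MTAL (adjusted p 0.0543 and 0.067 for *Cdh3*, 0.0575 and 0.065 for *Cdh6*), 1 and 1 between WT segments and 0 and 0 between cKO segments. Without the pools above 1 CPM of *Xist*, a setting chosen after seeing the data, 1 was called in cKO MTAL against WT MTAL and 1 between WT segments. The planned term for pools above 10 CPM of *Xist* could not be fitted, since no pool exceeded 10 CPM. Leaving out 1 pool at a time gave 1 (without cKO MTAL replicate 18) to 2 calls in cKO MTAL against WT MTAL, 0 (without cKO MTAL replicate 16) to 1 between cKO segments and 0 to 1 (without WT MTAL replicate 13) in the interaction, for which DESeq2 called 1. The cause of these losses was not tested. No paired analysis was run, because the groups share no replicate numbers and each pool came from its own animal. Which WT and cKO mice were littermates of each other is not given in the sources used here.

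Over all genes, the number called in cKO MTAL against WT MTAL was 845 with edgeR, 1399 without the filter, 2060 in one fit of all 18 pools, 162 and 121 with limma and 177 without the *Xist* pools, and 1366 with DESeq2. In cKO CTAL against WT CTAL it was 143, with DESeq2 360, with limma 45 and 32, with the *Xist* term 89 and without the *Xist* pools 4. Between WT segments it was 800, with limma 407 and 378, and without the *Xist* pools 216. Between cKO segments it was 211, with DESeq2 825, without the filter 508, in one fit 653, with the *Xist* term 672, without the *Xist* pools 415 and with limma 32 and 13. In the interaction it was 36, with DESeq2 353, without the filter 79, with limma 3 and 2, with the *Xist* term 21, without the *Xist* pools 0, and 17 with WT CTAL replicate 1 counted as cKO. Leaving out 1 pool gave 457 to 968, 75 to 188, 538 to 784, 104 to 835 and 15 to 570 calls in the same order. On the TPM scale the median of all genes was 0.22 and 0.24 in cKO MTAL against WT MTAL and 0.11 and 0.13 in cKO CTAL against WT CTAL (log2), and 89.5% and 90.1%, and 82.2% and 78.1%, of the calls were higher, where edgeR gave 63.3% and 53.8%. Changes on that scale are read relative to these shifts.

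Of the 35 uncalled changes, 682 alternatives gave 615 of the same direction, 2 calls, both of *Cdh3* in the interaction, and 65 with the opposite sign, of which 0 had an adjusted p under 0.05. The changes that turned sign were those of *Cdh16*, *Cdh1* and the catenins, whose fitted values lie near 0. In cKO MTAL against WT MTAL these were *Cdh1* with limma (0.08 and 0.08) and without *Xist* pools (0.002), *Ctnnb1* without the filter (-0.01) and *Ctnnd1* without the filter (-0.02) and without *Xist* pools (-0.005). In cKO CTAL against WT CTAL it was *Ctnnd1* with the *Xist* term (-0.001), without *Xist* pools (-0.01) and with WT CTAL replicate 1 as cKO (-0.05). Between WT segments these were *Cdh16* without the filter (0.01), with the *Xist* term (0.04), without *Xist* pools (0.23) and with WT CTAL replicate 1 as cKO (0.001), *Cdh1* with limma (-0.02 and -0.02) and without *Xist* pools (-0.0007), *Ctnnb1* with limma (-0.04 and -0.04), *Ctnnd1* without the filter (0.01), with limma (0.14 and 0.14), with the *Xist* term (0.01) and without *Xist* pools (0.04), and *Jup* without *Xist* pools (0.04). Between cKO segments these were *Ctnnb1* without the filter (-0.03) and in one fit (-0.005), *Ctnnd1* without the filter (-0.01), and *Jup* with DESeq2 size factors (-0.01), without the filter (-0.05), in one fit (-0.03), with limma (-0.04 and -0.04) and with the *Xist* term (-0.01). In the interaction these were *Cdh16* without *Xist* pools (-0.09), *Ctnnb1* with limma (0.13 and 0.13), *Ctnna1* without the filter (-0.0003) and *Ctnnd1* without the filter (-0.02), with limma (-0.003 and -0.003), with the *Xist* term (-0.004) and without *Xist* pools (-0.001).

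With 1 pool left out, *Ctnnb1* ranged from -0.04 to 0.12 in cKO MTAL against WT MTAL and from -0.05 to 0.08 between cKO segments, *Cdh1* from -0.004 to 0.05 and *Ctnnd1* from -0.06 to 0.05 in cKO CTAL against WT CTAL, *Cdh16* from -0.05 to 0.07 and *Ctnnd1* from -0.04 to 0.03 between WT segments, *Jup* from -0.08 to 0.10 between cKO segments and *Ctnnd1* from -0.03 to 0.10 in the interaction. Of 72 exact Mann-Whitney tests on other scales, 58 kept direction and side, 4 passed 0.05 (in the CTAL *Cdh1*, *Cdh6* and *Jup* on TPM and *Ctnnb1* on total counts) and 10 turned direction. These 10 exact tests were *Cdh1* in cKO MTAL against WT MTAL on TPM (p = 0.786), *Ctnnd1* in the CTAL on TPM (0.0952), *Cdh16* between WT segments on total counts (0.548) and on TPM (1.0), *Cdh1* on total counts (0.69), *Ctnnb1* and *Ctnnd1* on TPM (0.69 and 0.151), and between cKO segments *Cdh16*, *Ctnnb1* and *Jup* on TPM (0.786, 0.393 and 1.0). *Cdh2*, at 0.345 to 3.1 CPM and 9 to 110 counts per pool, did not pass the filter of 3 CPM, and no fitted test of it is reported.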
